A study of Mus musculus with 49 samples.

Results

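Protein-coding genes of the spliceosome and of the SR protein family were followed across 4 groups of late 2-cell mouse embryos. Membership was set by symbol and annotation, not by a measured value, as protein-coding genes of GRCm38 that belong to 5 families: the SF3A and SF3B subunits (Sf3a, Sf3b; 9 genes), the small nuclear ribonucleoprotein polypeptides (Snrp; 12), the PRPF factors (Prpf; 13), the SR proteins (Srsf; 11) and the LSM proteins (Lsm; 13). This gave 58 of 21998 protein-coding genes, among 54838 gene rows. In addition, 3 non-coding rows carried such a symbol (Snrpert, Snrp1c-ps1 and Snrp1c-ps2) and were left out.

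The spliceosome removes introns from pre-mRNA and is built on each intron from the small nuclear ribonucleoproteins (snRNPs) U1, U2, U4, U5 and U6. U1 recognises the 5′ splice site and U2, with its SF3A and SF3B subcomplexes, the branch point. The tri-snRNP of U4, U6 and U5 then joins, and its rearrangement, aided by PRPF factors, forms the catalytic centre. The Sm proteins encoded by Snrp genes form a ring on the U1, U2, U4 and U5 snRNAs, the LSM proteins form a related ring on U6, and SR proteins bind exons and recruit the splicing machinery. Splicing factors are needed once the embryonic genome is transcribed, which in the mouse becomes extensive at the late 2-cell stage.

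The embryos came from F1 (C57BL/6J × CBA/H) animals and every embryo gave 1 Smart-seq+5' library, in which reads from transcript 5' ends can be told from internal ones, and only the former were counted. In Trim-Away, an antibody was injected into the zygote and mCherry-Trim21 mRNA 4 h later, so that TRIM21, a ubiquitin ligase that binds antibodies, directs the bound protein to degradation. TBP LOF (loss of function) embryos received a mouse antibody against TBP, the TATA-binding protein of the general transcription machinery, and FOXJ3 LOF embryos a rabbit antibody against the forkhead factor FOXJ3. CONTROL embryos received mouse or rabbit IgG with the same mCherry-Trim21 mRNA, and all embryos were collected 48 h after hCG. Of 49 embryos in the labels, 47 passed quality control, namely 9 TBP LOF and 9 mouse IgG CONTROL embryos, and 16 FOXJ3 LOF and 13 rabbit IgG CONTROL embryos. The TBP embryos stem from several collections, which cannot be assigned to single embryos from the sources used here, whereas the FOXJ3 embryos carry 1 of 2 library batches in their labels. The TBP tests therefore hold no term for collection and treat the embryos as independent, so that differences between collections are not separated from the effect. Embryos were not pooled, and each library held all cells of an embryo, so that the values are per embryo and its cells cannot be told apart.

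Between 1103569 and 5434808 reads were counted per embryo, of which 3228 to 30263 fell on the 58 genes. Late 2-cell markers such as Zscan4c, Zscan4d and Zfp352 had reads in every group (10 of 10 genes), with summed levels of 141 to 1760 CPM (counts scaled to the same total of gene and TE reads in each embryo) over all embryos. Cumulus and granulosa cell markers stood at 9.62 to 73.9 CPM in sum, with Fshr and Inhba at 0 in all 4 groups. Tbp itself, whose protein and not mRNA is the target, had 6.59 to 151 normalized counts (median 83.3) in TBP LOF and 196 to 672 (median 279.5) in CONTROL, and changed by -2.14 ± 0.37 on the log2 scale (SE; edgeR, adjusted p = 5.3e-06). Foxj3 mRNA differed by 0.28 in FOXJ3 LOF and was not called (edgeR, adjusted p = 0.862). In the rabbit IgG CONTROL, 2 embryos of batch 1 stood apart, with median correlations to the rest of their group of 0.728 and 0.647 over genes, against 0.833 or more for the other 11. The counts of calls and the medians of the FOXJ3 experiment are therefore also given without them, for TMM scaling of FOXJ3 LOF and ERCC scaling of the difference between experiments. In TBP LOF these correlations ran from 0.778 (embryo 9) to 0.830 (embryo 5), and in mouse IgG CONTROL from 0.8345 to 0.873. No TBP LOF embryo was left out.

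Values of TBP embryos are counts divided by size factors from ERCC spike-ins, as in the study, which keeps changes in total RNA. ERCC transcripts made up 4.29% ± 1.19 of reads in the 9 TBP LOF embryos and 2.76% ± 0.37 in the 9 CONTROL embryos (mean ± SD). On this scale the median log2 fold change over all 19356 genes and TE families tested was -0.72, and with TMM, which assumes that most features do not change, it was 0.11. Every fold change below has to be read against these medians, and the TMM value, or the range of values for a group of genes, is given where a named gene differs in call or direction.

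Transcripts of the 5 families were lower in TBP LOF embryos as a whole. Summed over the 58 genes, normalized counts were 2364 to 7897 (median 4854) in TBP LOF and 9692 to 19047 (median 11156) in CONTROL embryos, so that every LOF embryo lay below every CONTROL embryo. As a share of reads, the sums were 1879 to 4628 CPM (median 3554) and 4482 to 7414 CPM (median 5604), and here the highest LOF embryo passed the lowest CONTROL embryo.

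**Figure D1:**
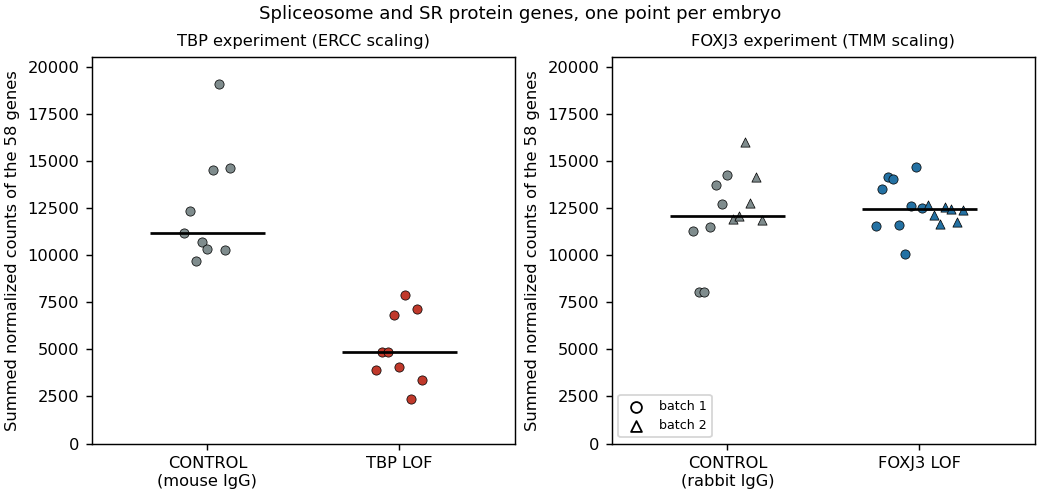
Summed normalized counts of the 58 spliceosome and SR protein genes, with 1 point per embryo and a line at each group's median. Scaling was by ERCC spike-ins in the TBP experiment (left) and by TMM in the FOXJ3 experiment (right, circles batch 1, triangles batch 2), so levels cannot be compared between the panels. The 9 TBP LOF embryos lie between 2364 and 7897, below all their CONTROL embryos, while the FOXJ3 LOF embryos lie within the range of theirs. Without the 2 lowest rabbit IgG CONTROL embryos that range begins at 11261, and the lowest FOXJ3 LOF embryo, at 10043, lies below it.

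Of the 57 genes tested, 46 fell in TBP LOF and 0 rose at an adjusted p under 0.05 (edgeR's quasi-likelihood test, Benjamini-Hochberg adjustment over all genes and TE families). Over all features, 29.7% were called lower and 1.34% higher, and over protein-coding genes with a mean of at least 10 reads per embryo, 49.0% and 1.03%. At an unadjusted p under 0.05, 48 genes were lower and 0 higher, and DESeq2 called 46 lower and 0 higher. Their median log2 fold change was -1.53, beside -0.72 over all features and -0.90 over those protein-coding genes. For 17 of the 58 genes every LOF embryo lay below every CONTROL embryo, as did 6.69% of all features and 14.5% of the protein-coding genes with at least 10 reads. Srsf12, with at most 2 reads in an embryo, was not tested. TBP LOF embryos also had a larger share of reads on oocyte markers, with sums of 1975 to 3515 CPM (median 2759) for 9 genes against 844 to 2464 CPM (median 1442), and on the 10 late 2-cell markers, with 470 to 1760 CPM (median 1298) against 141 to 960 CPM (median 306). On the ERCC scale 1 oocyte marker was called lower and 0 higher, and 0 late 2-cell markers lower and 3 higher. With TMM, 1 oocyte marker was lower and 6 higher, and 0 late 2-cell markers lower and 7 higher. Cumulus and granulosa markers had sums of 10.9 to 40.01 CPM in TBP LOF and 17.5 to 73.9 CPM in CONTROL, with Has2, Ptx3, Fshr, Lum and Inhba at 0 in both. Of this list 4 genes were tested, with 2 called lower and 0 higher on the ERCC scale, and 0 lower and 1 higher with TMM. The part of these markers in the result was not tested.

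With TMM, 27 of the 57 genes stayed lower (12.7% of all features, 22.9% of protein-coding genes with at least 10 reads) and 2 were called higher (12.8% and 19.8%). All 27 were among the 46. The median over the 57 genes was -0.67, beside 0.11 over all features. The share of lower among all calls was 95.7% over all features on the ERCC scale and 49.6% with TMM, whereas it was 100% and 93.1% among the 57 genes. Both genes called higher with TMM encode cytoplasmic LSM proteins, Lsm1 (0.73, edgeR, adjusted p = 0.025) and Lsm14a (0.62, adjusted p = 0.019), whose values on the ERCC scale were -0.24 and -0.19. Every TMM-scaled LOF embryo lay below every CONTROL embryo for Snrpd2, Snrpe and Prpf3, 3 of 58 genes, as for 1.87% of all features.

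**Figure D2:**
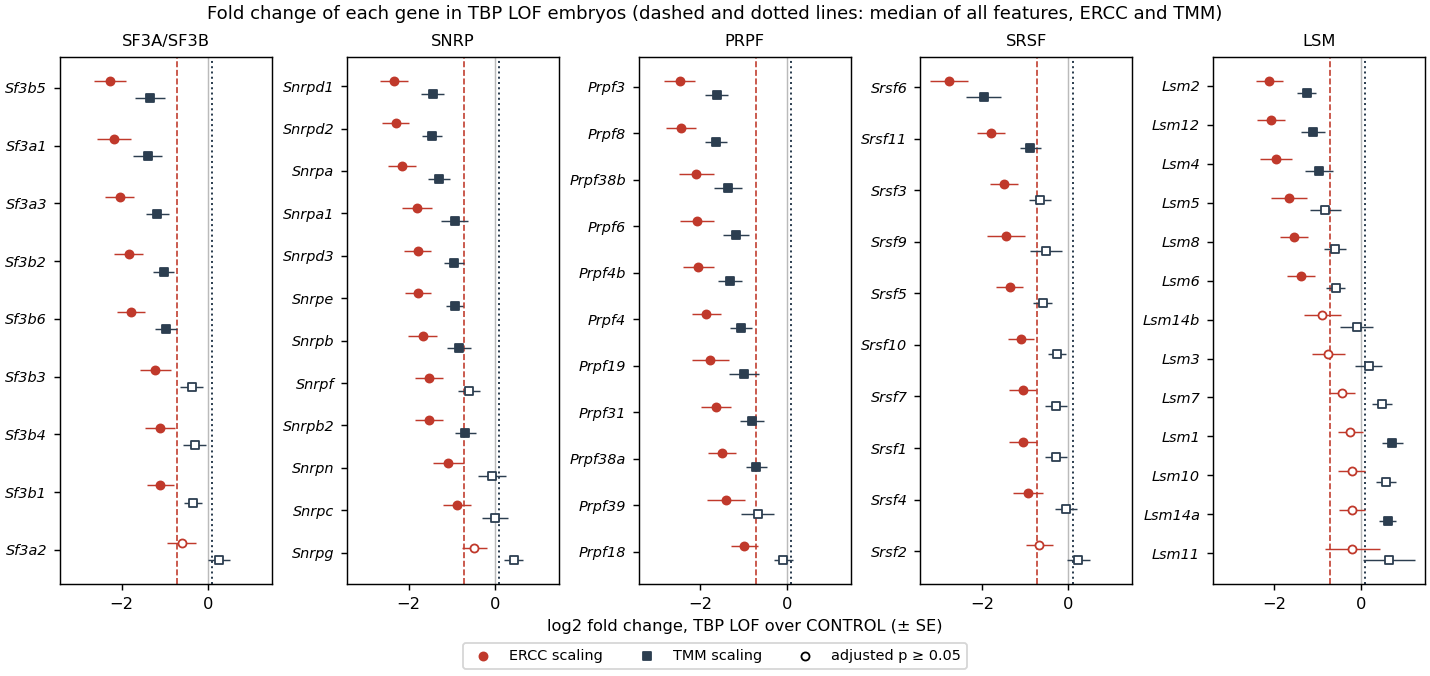
Log2 fold change of TBP LOF over CONTROL (± SE) for 55 genes of the 5 families, scaled by ERCC spike-ins (red circles) or TMM (dark squares), with open symbols for an adjusted p of 0.05 or more. Dashed and dotted lines mark the median of all features, -0.72 and 0.11. Genes of the SF3A/SF3B, SNRP and PRPF families lie mostly left of the line of the same scaling, and 7 LSM genes are open on the ERCC scale. Prpf40b is left out because hardly any reads fell on it, and 1 further gene is not shown.

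The SF3A and SF3B complexes belong to the U2 snRNP and hold the branch point. Of their 9 genes, 8 fell in TBP LOF (median -1.79), beside 29.7% of all features and 49.0% of protein-coding genes with at least 10 reads. With TMM 5 of them fell (median -0.96), beside 12.7% and 22.9%. Sf3b5 (ENSMUSG00000078348.4, chr10:13005343-13009183, forward strand), which encodes the smallest SF3B subunit, had 10.3 to 175 normalized counts (median 51.6) in TBP LOF and 121 to 528 (median 260.3) in CONTROL embryos. Of the LOF embryos, 8 lay below the lowest CONTROL embryo, and the log2 fold change was -2.27 ± 0.37 (SE; edgeR, adjusted p = 2.2e-06). Sf3a3 (chr4:124714776-124732460, forward strand), for an SF3A subunit, had 5.81 to 55.7 counts (median 27.6) against 79.2 to 163 (median 105), without overlap, and a fold change of -2.05 ± 0.34 (edgeR, adjusted p = 2.7e-06). Sf3a1 (chr11:4160350-4182541, forward strand), for the SF3A subunit that also contacts U1 snRNA, had 3.66 to 80.9 counts (median 12.3) against 79.0 to 160.3 (median 90.8). A single LOF embryo reached the CONTROL range, and the fold change was -2.18 ± 0.40 (edgeR, adjusted p = 1.4e-05).

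Sf3b1, the large scaffold of SF3B that is often mutated in myeloid neoplasms, fell by 1.098 on the log2 scale (edgeR, adjusted p = 0.0034), and Sf3b2 fell by 1.83, Sf3b3 by 1.22, Sf3b4 by 1.1 and Sf3b6 by 1.79. With TMM the calls of Sf3b1, Sf3b3 and Sf3b4 were lost, at values between -0.30 and -0.37. The gene with the largest adjusted p of the family was Sf3a2 (chr10:80798198-80804924, forward strand), with 19.04 to 122 counts (median 57.4) in TBP LOF and 38.0 to 174 (median 70.8) in CONTROL. Its groups overlapped almost throughout, and its value of -0.61 (edgeR, adjusted p = 0.166) turned to 0.26 with TMM (adjusted p = 0.464). Sf3a2 overlaps Plekhj1 on the other strand, and Sf3b3, which fell on the ERCC scale, overlaps Cog4 in the same way. A strand setting of the counting was not given in the sources used here.

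The 12 Snrp genes encode the Sm ring and the specific proteins of U1 and U2. In TBP LOF 11 fell (median -1.73; background 29.7% of all features and 49.0% of well-read protein-coding genes), and 8 also with TMM (median -0.88; background 12.7% and 22.9%). Among the Sm ring genes, Snrpd2 (ENSMUSG00000040824.3, chr7:19149722-19153542, forward strand) had 37.4 to 184 counts (median 80.5) in TBP LOF and 320 to 676 (median 388) in CONTROL embryos. The groups were far apart, and the log2 fold change was -2.30 ± 0.32 (SE; edgeR, adjusted p = 8.6e-08; with TMM -1.46). Its neighbour in the ring, Snrpd1 (chr18:10617775-10642079, forward strand), had 24.2 to 177 counts (median 100.4) against 373 to 890.4 (median 457), also without overlap, and changed by -2.33 ± 0.33 (edgeR, adjusted p = 1.2e-07). Snrpa (chr7:27187005-27196271, reverse strand), for the U1-specific A protein, which binds a stem-loop of U1 snRNA, had 13.9 to 79.7 counts (median 36.9) against 116 to 439 (median 175), with a change of -2.15 ± 0.33 (edgeR, adjusted p = 7.9e-07) and no overlap.

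Further Sm genes fell by 1.68 (Snrpb), 1.79 (Snrpd3), 1.78 (Snrpe) and 1.53 (Snrpf) on the log2 scale, the U2 genes by 1.81 (Snrpa1) and 1.53 (Snrpb2), and the U1 gene Snrpc by 0.87. With TMM, Snrpf (-0.60, edgeR, adjusted p = 0.0906) and Snrpc (0.00217, adjusted p = 0.997) lost their calls. Snrpg (chr6:86371304-86379328, forward strand), a further member of the Sm ring, was not called, with 488 to 1474 counts (median 865) in TBP LOF and 841 to 1908 (median 1018) in CONTROL. Its ranges overlapped, 4 of 9 LOF embryos lay below the lowest CONTROL embryo, and its value of -0.48 (edgeR, adjusted p = 0.222) became 0.44 with TMM (adjusted p = 0.167). Snrpn, the paternally expressed SmN gene, had 5.81 to 33.6 counts (median 20.6) against 23.5 to 73.5 (median 41.7) and fell by 1.08 (edgeR, adjusted p = 0.019), a call that was lost with TMM (-0.06, adjusted p = 0.919) and without 1 CONTROL embryo, number 8 (-0.94, adjusted p = 0.0536). It shares its transcript with Snurf, so that the counting may divide its reads.

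PRPF factors act mainly in the tri-snRNP and in its activation. Of 13 genes, 12 fell in TBP LOF (median -1.77; background again 29.7% and 49.0%), and 9 also with TMM (median -0.99; background 12.7% and 22.9%). Prpf8 (ENSMUSG00000020850.14, chr11:75486816-75509449, forward strand), the scaffold of the catalytic centre, had 5.55 to 37.4 counts (median 23.8) in TBP LOF and 48.8 to 195 (median 129.7) in CONTROL embryos. All LOF embryos lay below all CONTROL embryos, and the log2 fold change was -2.46 ± 0.34 (SE; edgeR, adjusted p = 1.2e-07; with TMM -1.64). Prpf3 (chr3:95830124-95855885, reverse strand) of the U4/U6 snRNP had 6.04 to 30.2 counts (median 10.99) against 48.5 to 133 (median 66.8), without overlap also under TMM, and changed by -2.49 ± 0.36 (edgeR, adjusted p = 2.4e-07). For Prpf4b (chr13:34875302-34906064, forward strand), a kinase of the assembling spliceosome, 6.04 to 104 counts (median 34.9) stood against 71.9 to 208 (median 187), a change of -2.05 ± 0.36 (edgeR, adjusted p = 7.7e-06) with 8 LOF embryos below the lowest CONTROL embryo.

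The remaining U4/U6 and U5 genes moved the same way, with log2 falls of 1.86 (Prpf4), 1.64 (Prpf31, mutated in retinitis pigmentosa) and 2.08 (Prpf6). Prpf19, the ubiquitin ligase of the Prp19 complex, fell by 1.77, Prpf38a by 1.51, Prpf38b by 2.10 and the second-step factor Prpf18 by 0.98. The U1-associated gene Prpf39 fell by 1.41. Prpf18 and Prpf39 were among the genes that lost their calls with TMM (values of -0.08 and -0.67). Prpf40b was barely detected, with 8 reads over the TBP LOF and 2 over the CONTROL embryos, and no fold change is given for it.

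**Figure D3:**
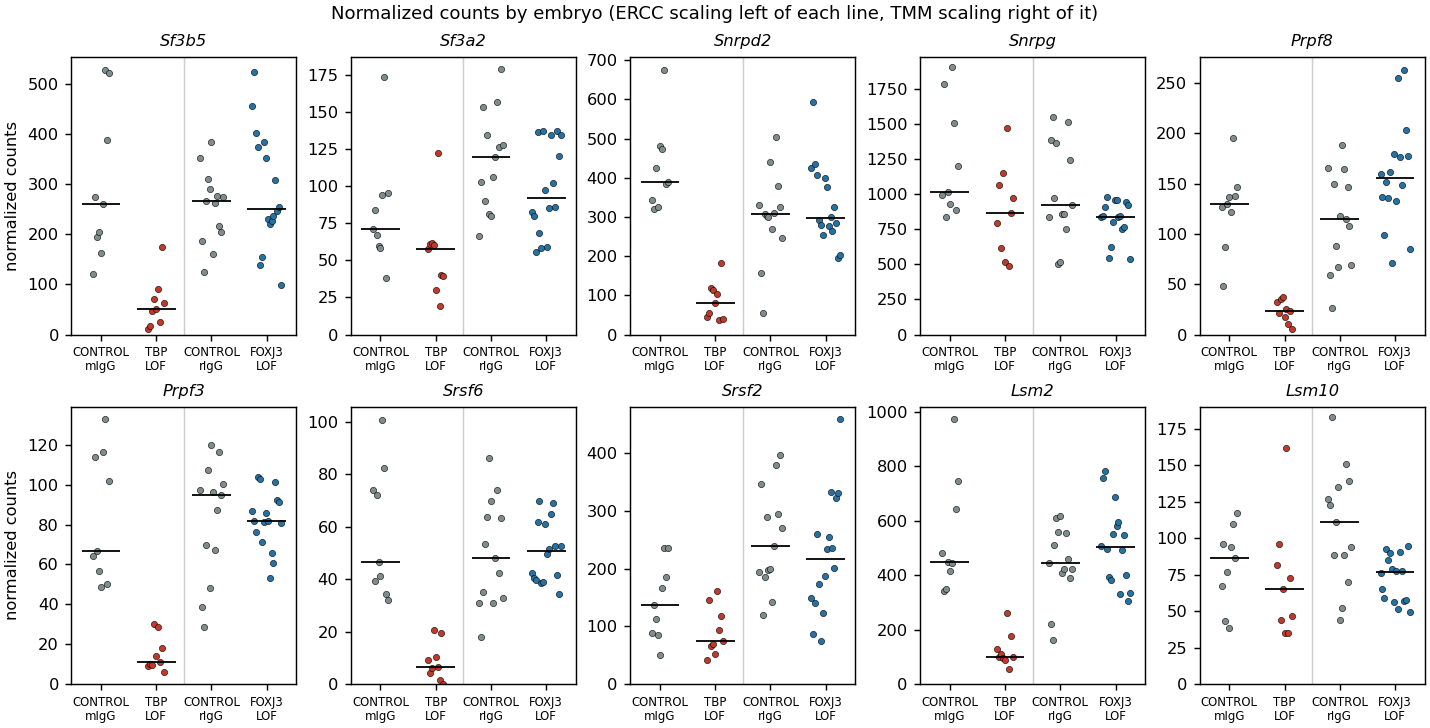
Normalized counts by embryo for 2 genes of each family, 1 with among the smallest adjusted p in the TBP experiment and 1 of the less affected, except Prpf8 and Prpf3, which both fell. Each point is an embryo and each line a group's median, with ERCC scaling in the TBP experiment (left of the grey line) and TMM in the FOXJ3 experiment (right). Sf3b5, Snrpd2, Prpf8, Prpf3, Srsf6 and Lsm2 are low in TBP LOF embryos, without overlap except for 1 LOF embryo of Sf3b5, whereas the ranges of Sf3a2, Snrpg, Srsf2 and Lsm10 overlap with CONTROL over most of the LOF embryos.

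SR proteins bind exonic enhancers and act in constitutive and alternative splicing. Of the 10 Srsf genes tested, 9 fell in TBP LOF (median -1.23), beside 49.0% of protein-coding genes with at least 10 reads. With TMM 2 fell (median -0.40), Srsf6 and Srsf11, a share near the 22.9% of those genes. Srsf6 (ENSMUSG00000016921.14, chr2:162931528-162937121, forward strand) had 0.241 to 20.5 counts (median 6.35) in TBP LOF and 32.2 to 101 (median 46.6) in CONTROL embryos. Every LOF embryo lay below every CONTROL embryo, and the log2 fold change of -2.76 ± 0.45 (SE; edgeR, adjusted p = 1.9e-06; with TMM -1.96) was the lowest of the 57 genes on either scale. Srsf11 (chr3:158010473-158036639, reverse strand), an SR protein with roles in alternative splicing, had 30.7 to 121 counts (median 61.4) against 130 to 559 (median 229), no overlap and a change of -1.80 ± 0.32 (edgeR, adjusted p = 1.2e-05). Srsf3 (chr17:29032628-29043373, forward strand), the smallest SR protein, which also has roles in mRNA export, had 31.9 to 102.6 counts (median 75.9) against 103.1 to 507 (median 139.7), groups that only just did not overlap. It fell by 1.49 (edgeR, adjusted p = 2.4e-04), with TMM by 0.65 (adjusted p = 0.066).

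Srsf1, the founding SR protein, fell by 1.05, Srsf7 by 1.06, Srsf10 by 1.09, Srsf5 by 1.36, Srsf9 by 1.43 and Srsf4 by 0.93 on the log2 scale, and none of the 6 was called with TMM, at values from -0.59 (Srsf5) to -0.06 (Srsf4). Srsf2 (chr11:116849901-116853094, reverse strand), for the exonic enhancer-binding protein SC35, had 42.5 to 162 counts (median 74.6) in TBP LOF and 51.4 to 236 (median 137) in CONTROL. Of the LOF embryos 1 was below the lowest CONTROL embryo, and its value of -0.67 (edgeR, adjusted p = 0.103) was 0.24 with TMM (adjusted p = 0.547). Srsf2 overlaps Mfsd11 and Mettl23 on the other strand, and Srsf1, which fell on the ERCC scale, overlaps Gm11508 there.

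The 13 Lsm genes are given by the particle that their products belong to. LSM2 to LSM8 form the ring on U6 snRNA, and 5 of these 7 genes fell in TBP LOF, beside 49.0% of protein-coding genes with at least 10 reads. With TMM 2 of the 7 fell, beside 22.9% of those genes. Lsm2 (ENSMUSG00000007050.17, chr17:34981862-34985891, forward strand) had 55.7 to 260.4 counts (median 100.2) in TBP LOF and 341 to 973 (median 447) in CONTROL embryos. The groups did not overlap, and the log2 fold change was -2.12 ± 0.31 (SE; edgeR, adjusted p = 2.7e-07; with TMM -1.26). Lsm4 (chr8:70673248-70678752, forward strand) had 3.62 to 28.8 counts (median 12.7) against 21.6 to 102 (median 50.3), with 7 LOF embryos below the lowest CONTROL embryo and a change of -1.96 ± 0.37 (edgeR, adjusted p = 2.5e-05). Lsm5, Lsm6 and Lsm8 fell by 1.66, 1.39 and 1.55 and lost their calls with TMM (-0.82, -0.58 and -0.60), whereas Lsm3 (-0.75, edgeR, adjusted p = 0.139; with TMM 0.18) and Lsm7 (-0.43, adjusted p = 0.294; with TMM 0.50) were not called on either scale.

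Outside this ring, Lsm12 (chr11:102162497-102185296, reverse strand), a protein with an LSM-like domain that is not part of a snRNP ring, fell. It had 14.9 to 102 counts (median 71.3) against 143 to 434 (median 234), without overlap, and a change of -2.09 ± 0.33 (edgeR, adjusted p = 9.3e-07; with TMM -1.10). Lsm1, which replaces LSM8 in the cytoplasmic ring that promotes decapping, was not called, with -0.24 (edgeR, adjusted p = 0.592). Nor were the mRNP proteins of P-bodies, Lsm14a (-0.19, adjusted p = 0.69) and Lsm14b (-0.89, adjusted p = 0.108), or the U7 snRNP proteins, Lsm10 and Lsm11. Lsm10 (chr4:126096623-126098584, forward strand) had 35.01 to 162 counts (median 65.2) in TBP LOF and 38.5 to 117 (median 86.5) in CONTROL, a value of -0.21 (edgeR, adjusted p = 0.682) that was 0.59 with TMM (adjusted p = 0.0596). Lsm11 (chr11:45928269-45944935, reverse strand) was low in both groups, at 0 to 10.3 counts (median 3.86) and 1.66 to 13.6 (median 3.61), and its value of -0.19 had a SE of 0.65 (edgeR, adjusted p = 0.868; with TMM 0.65). In all, 6 of 13 Lsm genes fell (median -0.89), beside 49.0% and a median of -0.90 over protein-coding genes with at least 10 reads. With TMM 3 fell and 2 rose (median -0.10), beside 22.9% and 19.8% of those genes, so that the share of lower genes was near the background on both scales. The number of falling genes was not tested against that of the other families.

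The wider splicing machinery, and partners of LSM proteins in mRNA decay and histone processing, were described by 11 lists of genes outside the families. Together these held 142 genes, of which 140 were tested, and the totals below include the decay and histone processing genes. In TBP LOF, 102 fell and 0 rose (median -1.37), beside 29.7% and 1.34% of all features and 49.0% and 1.03% of protein-coding genes with at least 10 reads. With TMM 51 fell and 6 rose (median -0.51), beside 12.7% and 12.8% of all features and 22.9% and 19.8% of those genes. The counts by list are to be read against the same shares. Of the U1 proteins 5 of 8 fell, with Snrnp70 (-2.21 ± 0.33, edgeR, adjusted p = 5.4e-07), the U1-70K protein, as the first by adjusted p. Of the proteins at U2 and the 3′ splice site 13 of 15 fell, led by Puf60 (-1.91 ± 0.33, adjusted p = 5.6e-06), which acts with U2AF. The U5 and tri-snRNP list had 9 of 13 lower, led by Txnl4a (-2.56 ± 0.34, edgeR, adjusted p = 4.6e-08). In it, Eftud2, the GTPase that binds PRPF8, had the lowest value of these lists, -3.96, a gene singled out after its values were seen.

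Among Prp19-associated and catalytic proteins 17 of 22 fell, led by Rbm22 (-2.37 ± 0.33, edgeR, adjusted p = 1.2e-07). Proteins of the minor spliceosome, which removes rare U12-type introns, were lower in 6 of 8 cases, led by Zmat5 (-2.15 ± 0.32, adjusted p = 3.8e-07). SR-related proteins and SR kinases fell in 12 of 15 cases, led by the kinase Clk1 (-2.43 ± 0.38, adjusted p = 1.1e-06), and hnRNP proteins in 18 of 24, led by Hnrnpm (-2.51 ± 0.33, edgeR, adjusted p = 2.4e-08). All 5 exon junction genes fell, led by Rbm8a (-1.71 ± 0.31, adjusted p = 1.3e-05). With TMM, the lists from U1 to the exon junction named so far had 3, 5, 6, 9, 4, 5, 5 and 2 lower genes, and 1 gene rose in each of the U2, SR-related and hnRNP lists.

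Assembly factors of snRNPs, which load the Sm ring onto snRNA and bring it to the nucleus, had the highest share with TMM of the 11 lists. Of the 16 genes, 14 fell on the ERCC scale (median -2.01) and 12 with TMM (median -1.16), led by Phax (-2.54 ± 0.35, edgeR, adjusted p = 9.9e-08), the export adaptor of snRNA, and including Smn1 (-2.10) and Coil (-2.29). The partners of LSM proteins outside the spliceosome had the lowest shares on both scales, in lists of only 9 and 5 tested genes. Their difference from the other lists or from all features was not tested. Of 9 decapping and 5′ decay genes tested, 2 fell, led by Ddx6 (-1.43 ± 0.38, edgeR, adjusted p = 0.0021; with TMM -0.50, adjusted p = 0.286), and with TMM 0 fell and 2 rose, Dcp1a (0.76) and Dcp2 (1.101), at -0.06 and 0.31 on the ERCC scale. Of 5 histone processing genes tested, 1 fell, Slbp (-0.74 ± 0.30, edgeR, adjusted p = 0.0473), whose value turned to 0.07 with TMM (adjusted p = 0.829). All 5 had values above 0 with TMM, where 0 fell and 1 rose, Cpsf3 (0.65), at -0.22 on the ERCC scale.

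**Figure D4:**
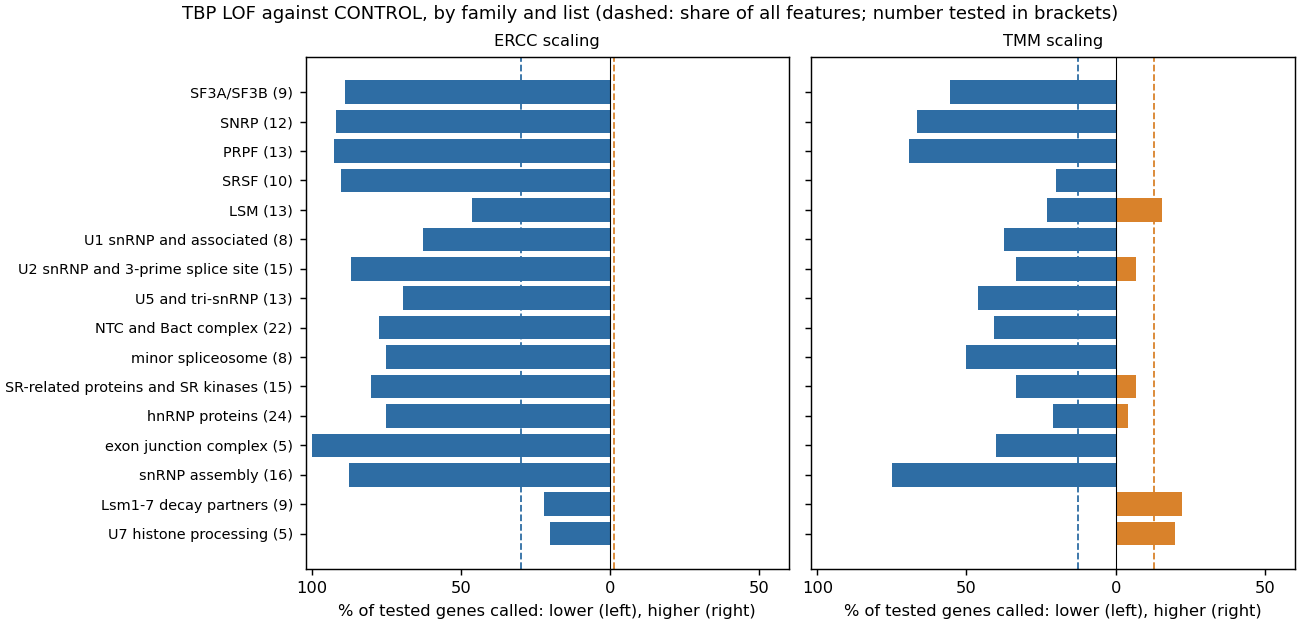
Share of tested genes called lower (blue, left) or higher (orange, right) in TBP LOF at an adjusted p under 0.05, for the 5 families and the 11 lists, scaled by ERCC spike-ins or TMM. Dashed lines give the share over all features, 29.7% lower and 1.34% higher on the ERCC scale and 12.7% and 12.8% with TMM. The lists of LSM partners in decay and histone processing, with only 9 and 5 genes tested, lie below the dashed line for lower genes in both panels.

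The FOXJ3 comparison asks how the genes respond to the depletion of another transcription factor. None of the 57 genes tested was called, 0 lower and 0 higher (edgeR with TMM and batch as covariate), beside 0.0102% lower and 0.0% higher of all 19517 features, which are the genes Letm1 and Gm37234. At an unadjusted p under 0.05, 3 of the 57 were lower and 2 higher, beside 1115 of 19517 features in either direction, and DESeq2 called 0 after adjustment, with 6 lower and 2 higher before it. Their median log2 fold change was 0.06, beside -0.03 over all features. It was 0.19 in batch 1, -0.11 in batch 2 and -0.04 without the 2 CONTROL embryos that stood apart, where again 0 genes were called and 4 were lower and 2 higher at an unadjusted p under 0.05. Scaled by ERCC, the median was 0.25 beside 0.14 over all features, with 0 calls. Summed normalized counts of the 58 genes were 10043 to 14659 (median 12454) in FOXJ3 LOF and 8041 to 16002 (median 12076) in CONTROL embryos, and the 2 embryos that stood apart were the lowest, at 8041 and 8052. The next CONTROL embryo stood at 11261, above the lowest LOF embryo. The 2 that stood apart received rabbit IgG, yet some genes that fell in TBP LOF were low in them. Sf3a1 had 28.9 and 28.4 counts (CONTROL median 122.7), Sf3a3 24.9 and 28.4 (130.1) and Snrpd2 156 and 55.8 (306.5). Snrpg, not called in TBP LOF, was high, at 1386 and 1549 (923). Others that fell were not low, such as Snrpb2 at 100.6 and 162 (100.6). These are examples, and a likeness to TBP LOF was not tested.

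The gene with the smallest unadjusted p in each family is described next. Lsm10 had 49.7 to 94.3 normalized counts (median 76.7) in FOXJ3 LOF and 43.9 to 183 (median 111) in CONTROL embryos. The log2 change of -0.58 ± 0.18 (SE) did not pass the adjustment (edgeR, adjusted p = 0.567), and without the 2 CONTROL embryos that stood apart it was -0.48. Prpf8 had 71.6 to 263 counts (median 156) against 26.3 to 189 (median 115), a value of 0.51 ± 0.20 (edgeR, adjusted p = 0.804; 0.36 without these 2 embryos). Of the 16 LOF embryos, 16 lay below the CONTROL median for Lsm10 (15 without the 2 CONTROL embryos) and 13 above it for Prpf8 (13 without them). For Snrpn, 15.9 to 69.9 counts (median 39.4) stood against 16.4 to 80.1 (median 56.1), at -0.48 ± 0.22 (edgeR, adjusted p = 0.86; -0.62 without them), and 15 LOF embryos lay below the CONTROL median with or without them. Sf3a2 and Srsf11 differed by -0.23 and 0.23 (edgeR, adjusted p = 0.916 for both), and by -0.16 and 0.10 without them. For Sf3a2, 10 LOF embryos lay below the CONTROL median with or without them, and for Srsf11 9 lay above it (8 without them). The groups of each of these 5 genes overlapped.

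The effect of FOXJ3 LOF was also compared between the library batches, and 0 of 57 genes differed (edgeR, group by batch term), as did 0.0% of all features. At an unadjusted p under 0.05 there were 2 genes lower and 1 higher in batch 2, beside 1553 of 19517 features in either direction. Without the 2 CONTROL embryos that stood apart, 0 genes differed, with again 2 lower and 1 higher at an unadjusted p under 0.05.

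That genes were called in one experiment and not in the other does not show that the effects differ, which was tested as the difference between them in 1 fit over all 47 embryos. Scaled by ERCC, the effect of TBP LOF was lower than that of FOXJ3 LOF for 44 of 57 genes and higher for 0 (edgeR), beside 27.8% and 0.931% of all features, with a median difference of -1.73 beside -0.91. Of 7887 protein-coding genes with at least 10 reads, 3700 were lower and 36 higher (median -1.11). With TMM, 23 of the 57 genes were lower and 3 higher, beside 10.6% and 10.2% of all features, with a median of -0.65 beside 0.11. Of those protein-coding genes, 1523 were then lower and 1260 higher (median -0.07). Without the 2 CONTROL embryos that stood apart, 44 genes were lower and 0 higher on the ERCC scale, with a median of -1.61. The 44 genes were among the 46 that fell in TBP LOF, and the other 2 were Snrpn (-0.76, edgeR, adjusted p = 0.22) and Srsf4 (-0.95, adjusted p = 0.0749). The 3 genes higher with TMM were Lsm1, Lsm10 and Snrpg. The lowest difference of each family on the ERCC scale, picked from this same fit, is given next and is not typical of its family. The difference was -3.08 ± 0.44 (SE; edgeR, adjusted p = 2.9e-07) for Prpf8, -3.00 ± 0.53 for Srsf6 (adjusted p = 9e-06), -2.65 ± 0.38 for Snrpd1 (adjusted p = 2.6e-07), -2.53 ± 0.47 for Sf3a1 (adjusted p = 2.3e-05) and -2.51 ± 0.42 for Lsm12 (adjusted p = 3.2e-06). The experiments differed in antibody species and share no CONTROL embryos.

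**Figure D5:**
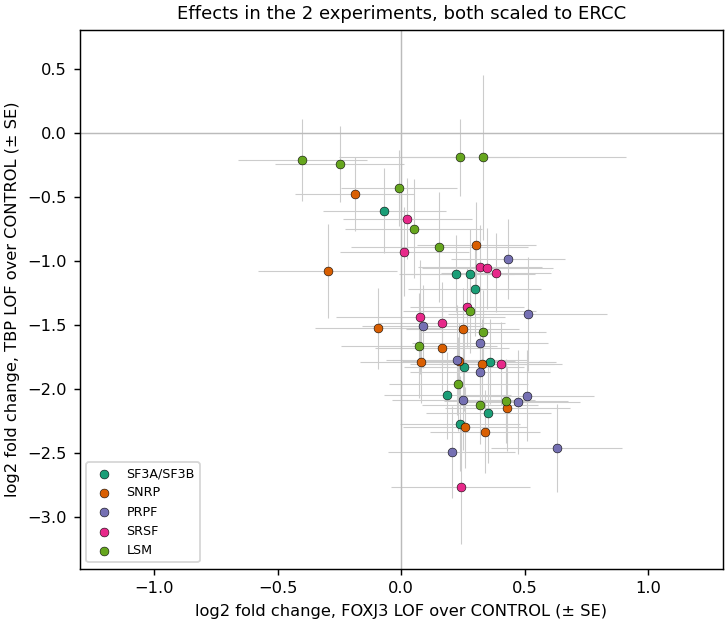
Log2 fold change in TBP LOF (vertical axis) against that in FOXJ3 LOF (horizontal axis), each over its own CONTROL and scaled by ERCC spike-ins (± SE), for 55 genes coloured by family. Points spread from -0.40 to 0.63 along the horizontal axis, with a median of 0.25 over the 57 genes tested, and from -2.76 to -0.19 along the vertical axis, with a median of -1.53.

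As TBP is named for the TATA box, the promoters of the genes were searched for its core letters TATAAA. RefSeq promoter windows of 300 bases (250 before and 50 after each annotated start, GRCm38.p6) were at hand for 49 of the 58 genes, with 62 starts, and not for Lsm1, Lsm4, Lsm12, Prpf18, Sf3b4, Sf3b5, Snrpb and Snrpd1, among others. TATAAA stood on the gene strand in 4 of the 62 windows (6.45%), beside 8.32% of all 32851 windows and 3.75% of those of protein-coding genes with at least 10 reads. With the first T 40 to 20 bases before the start it stood in 1 member window (1.61%), beside 1.99% and 0.844%, and on the other strand in 1 window (1.61%), beside 6.95% and 3.24%. Only these exact letters were searched, so that other forms of a TATA box are not counted. The Srsf7 window, for example, holds tatataag before the start, and Srsf7 fell on the ERCC scale. The 1 window with TATAAA 40 to 20 bases before the start is of Srsf2, which was not called lower in TBP LOF. There the motif begins 29 bases before the start on the gene strand. In Srsf3, which fell on the ERCC scale, it begins 18 bases before the start, in Snrpa, which fell on both scales, 171 bases before the start of 1 of its 2 windows, and in Sf3b3 96 bases before it. The first 3 windows are printed to show where these letters lie, with TATAAA in capitals, from chr11:116853045-116853344 (reverse strand), chr17:29032410-29032709 (forward strand) and chr7:27196222-27196521 (reverse strand).
Srsf2: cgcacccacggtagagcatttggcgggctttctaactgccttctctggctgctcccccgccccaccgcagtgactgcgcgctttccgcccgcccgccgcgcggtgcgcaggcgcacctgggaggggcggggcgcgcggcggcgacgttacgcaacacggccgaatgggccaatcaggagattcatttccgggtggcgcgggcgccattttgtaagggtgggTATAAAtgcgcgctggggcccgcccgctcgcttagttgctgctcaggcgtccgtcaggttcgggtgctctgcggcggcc
Srsf3: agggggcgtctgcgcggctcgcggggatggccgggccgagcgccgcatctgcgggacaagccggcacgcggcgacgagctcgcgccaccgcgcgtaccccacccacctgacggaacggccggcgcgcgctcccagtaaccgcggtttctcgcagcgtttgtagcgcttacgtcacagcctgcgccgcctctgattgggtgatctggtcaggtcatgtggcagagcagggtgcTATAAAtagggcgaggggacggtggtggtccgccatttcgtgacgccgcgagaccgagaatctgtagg
Snrpa: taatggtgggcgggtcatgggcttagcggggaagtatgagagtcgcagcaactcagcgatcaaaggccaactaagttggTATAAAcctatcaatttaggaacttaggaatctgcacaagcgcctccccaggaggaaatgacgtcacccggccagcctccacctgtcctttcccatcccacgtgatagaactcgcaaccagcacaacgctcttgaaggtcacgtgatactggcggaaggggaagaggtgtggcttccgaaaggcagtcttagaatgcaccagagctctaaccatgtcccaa

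A second set of letters, CCGGAAG, the core bound by ETS factors, was searched on both strands after the values were seen. It stood in 22 of the 62 windows (35.5%), beside 8.86% of all windows and 20.2% of those of protein-coding genes with at least 10 reads. It does not overlap TATAAA in letters. The windows of 3 genes are printed with these letters, or their reverse complement CTTCCGG, in capitals, namely Sf3a3 (chr4:124714611-124714910, forward strand) and Prpf4b (chr13:34875279-34875578, forward strand), which fell in TBP LOF, and Snrpg (chr6:86371290-86371589, forward strand), which was not called. The motif begins 90, 71 and 145 bases before the start in these windows. They are examples and do not give its share by outcome, and a link between the motif and the fall was not tested.
Sf3a3: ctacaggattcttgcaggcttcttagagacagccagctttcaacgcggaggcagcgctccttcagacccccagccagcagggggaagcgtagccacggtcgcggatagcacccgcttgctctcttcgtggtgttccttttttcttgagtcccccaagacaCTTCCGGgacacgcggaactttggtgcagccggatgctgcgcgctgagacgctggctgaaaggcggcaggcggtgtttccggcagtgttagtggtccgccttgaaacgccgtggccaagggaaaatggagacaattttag
Prpf4b: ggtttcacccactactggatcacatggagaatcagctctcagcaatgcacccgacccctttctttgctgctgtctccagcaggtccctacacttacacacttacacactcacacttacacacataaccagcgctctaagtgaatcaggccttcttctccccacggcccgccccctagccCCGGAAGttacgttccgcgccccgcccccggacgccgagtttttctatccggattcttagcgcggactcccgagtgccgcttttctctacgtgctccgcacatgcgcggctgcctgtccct
Snrpg: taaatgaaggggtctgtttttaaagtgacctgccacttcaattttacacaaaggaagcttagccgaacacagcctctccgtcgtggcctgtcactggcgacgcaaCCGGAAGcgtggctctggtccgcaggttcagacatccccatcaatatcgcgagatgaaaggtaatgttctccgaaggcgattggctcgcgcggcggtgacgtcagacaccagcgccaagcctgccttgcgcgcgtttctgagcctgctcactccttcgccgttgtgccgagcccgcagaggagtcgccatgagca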

How the data were processed

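The authors trimmed the reads with Trimmomatic, mapped the 5' reads with STAR 2.7.11a (per the submitters' processing notes) to GRCm38 with the mCherry-Trim21 construct added, and counted them with TEcount on gencode M20 genes, TE families and ERCC transcripts. The deposited values are estimated counts without normalization, all whole numbers. The sources used here do not give the handling of multi-mapping reads or a strand setting. Overlapping and near-identical genes may therefore exchange reads. The TElocal tables held the same gene counts (0 values differ).

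Symbols came from gencode M21, matched for 54809 of 54838 rows, and 42 TE subfamily rows were added to 6 families, which left 1343. Embryos needed at least 500000 reads, 1000 detected genes, at most 10% mitochondrial and 15% ERCC reads. Genes and TE families with 1 read in at least 25% of an experiment's embryos were tested together with edgeR 4.0.16 (quasi-likelihood, two-sided, Benjamini-Hochberg, threshold 0.05). Scaling was by the median of ratios of 42 ERCC transcripts for TBP and by TMM with library batch as covariate for FOXJ3. The authors used DESeq2. Standard errors were derived from the F statistic. The construct was not tested. Of the 58 genes 1 enters the counts, sums and medians but is not reported here by itself. Counting error understates the noise, because PCR copies were counted without molecular identifiers, and the spread between embryos was used. Scripts were tested on simulated data.

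The genes and lists were chosen with earlier results of these data known. Named in full are, per family, the 3 genes with the smallest adjusted p among those called in the TBP comparison, the one with the largest, any called higher, and the one with the smallest unadjusted p for FOXJ3, and per list the first gene in each direction. R 4.3.3, DESeq2 1.42.0, Python 3.11.15, pandas 2.3.3 and matplotlib 3.10.9 were also used. Equal embryo numbers in LOF and CONTROL groups mark no shared origin in the labels. Alternatives are other scalings, DESeq2, 2 filters, all 49 embryos, embryo number as a block, and single batches.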

Additional observations from a re-analysis of the deposited data

Results flagged for a closer look

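In the TBP experiment, 22 named genes and the summed counts of all 58 were searched for an embryo far from the rest of its group of 9, by the gap to its neighbour as a share of the group's range (above 0.493, Dixon's 95% value). For independent values with a normal distribution, about 1 in 20 groups passes by chance. These counts were not transformed and the groups share embryos, so that this rate does not apply as it stands. Of 46 groups 12 passed, all with the highest embryo apart. Number 8 of the mouse IgG CONTROL embryos was apart in 5 genes, with 173.6 normalized counts of Sf3a2 (next 95.4), 675.9 of Snrpd2 (next 481), 890.4 of Snrpd1 (next 512), 438.5 of Snrpa (next 247) and 558.7 of Srsf11 (next 334.5). Without this embryo, an alternative chosen after seeing the data, 44 of 57 genes were lower and 0 higher in TBP LOF, with a median log2 fold change of -1.44. CONTROL embryo 1 had 507.2 counts of Srsf3 (next 239.7). Of the TBP LOF embryos, number 10 had 175.4 counts of Sf3b5 (next 90.5), number 6 had 80.88 of Sf3a1 (next 36.7), and number 8 had 122.3 of Sf3a2 (next 61.8) and 162.0 of Lsm10 (next 95.8). Prpf40b, near 0 throughout, had 3.673 counts in TBP LOF embryo 5 (next 0.82) and 1.663 in CONTROL embryo 4 (next 0.339).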

How the results depend on the processing

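In the TBP experiment, DESeq2, no filter, filterByExpr, all embryos, the replicate block and leaving out CONTROL embryo 8 gave 44 to 46 genes lower and 0 higher, with medians of -1.53 to -1.39. Scaling was the choice that moved the results. TMM gave 27 lower, 2 higher and a median of -0.67, and DESeq2's size factors on genes and TE families 28 lower, 3 higher and -0.65, since both centre the bulk of features near 0 (medians 0.11 and 0.13). The difference between experiments went from 44 lower and 0 higher to 23 lower and 3 higher with TMM, with a median of -0.65. Under TMM and DESeq2's size factors, 5 named genes that were not called turned from lower to higher, Sf3a2 (0.26 and 0.28), Snrpg (0.44 and 0.46), Srsf2 (0.24 and 0.27), Lsm11 (0.65 and 0.70) and Lsm10 (0.59 and 0.62, the latter called, edgeR, adjusted p = 0.0438). In the FOXJ3 experiment 0 genes were called under any of the alternatives, and medians ran from -0.11 (batch 2) to 0.25 (ERCC scaling). The deviations of embryos with equal numbers correlated at -0.0545 to 0.133 over 7 pairs in the TBP experiment (1 pair over 0.1, 0 best with their own number) and at -0.201 to 0.27 over 12 pairs in the FOXJ3 experiment (3 pairs over 0.1, all in batch 2, 1 best with its own number), so that the numbers were not taken as pairs. With embryo number as a replicate block, 45 genes were lower and 0 higher in TBP LOF (median -1.39), and 0 were called in FOXJ3 LOF (median 0.10). Depth limits Prpf40b and Srsf12 most, with 8 and 0 reads over the TBP LOF and 2 and 3 over the CONTROL embryos.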

Other observations

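Further promoter motifs were chosen after the values were seen. GGGCGG, the GC box, stood on either strand in 39 of 62 windows (62.9%), beside 35.7% of all windows and 64.3% of those of protein-coding genes with at least 10 reads, and CCAAT in 24 (38.7%), beside 37.4% of all windows and 3179 of 7941 windows of those genes.

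By family, the sums of normalized counts in TBP LOF and mouse IgG CONTROL embryos did not overlap. They were 233.5 to 786 and 1235 to 2139 for SF3A/SF3B, 908 to 3528 and 4243 to 8234 for Snrp, 176 to 728 and 969 to 1986 for Prpf, and 441 to 1558 and 1694 to 3441 for Srsf. For Lsm they were 524 to 1391 and 1408 to 3246, with a narrow gap. As a share of reads, the sums of 3 families overlapped, at 721 to 2287 CPM in TBP LOF and 1962 to 3205 CPM in CONTROL embryos for Snrp, 405 to 969.8 and 783 to 1339.6 CPM for Srsf, and 417 to 691 and 651 to 1264 CPM for Lsm. In the FOXJ3 experiment, with all 13 CONTROL embryos, the sums of all 5 families overlapped.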
